A study of Rattus norvegicus with 7 samples.

Results

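The microRNAs (miRNAs) rno-miR-19a, rno-miR-19b, rno-miR-25, rno-miR-32, rno-miR-92a and rno-miR-92b were read in rat pancreatic islets at 2 ages. They were chosen by name from the 677 rat miRNAs on an Agilent single-colour miRNA array, with the opposite strands of their hairpins left out, and all 6 were found. The rats were male Wistar animals, and their islets had been isolated by collagenase digestion. The older group held 4 rats aged 12 months (replicates 2, 4, 10 and 16) and the younger group 3 rats aged 3 months (replicates 9, 11 and 13), with 1 Cy3-labelled array per rat. The question was which islet miRNAs differ between the ages.

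A miRNA is a short RNA that guides a silencing complex to messenger RNAs. It pairs with them mainly through its seed, the bases after the first one, so miRNAs with the same seed share many predicted targets. The miR-19 seed and the miR-25 seed occur together in the miR-17 cluster (miR-17 to miR-92a), a primary transcript that is induced by MYC and E2F factors and is best known for promoting proliferation and survival. MiR-92a is known as a repressor of vessel growth in endothelial cells. Relatives of the miR-92 sequence are also made from the miR-106b-25 and miR-106a-363 clusters and from single genes. MiR-25 is matured from an intron of a replication gene.

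The mature sequences are shown because they define the groups in which the values are described. They are the RefSeq sequences on the rat assembly GRCr8, in the 5′ to 3′ direction, with the seed (bases 2 to 8) in capitals. The first pair carries the miR-19 seed.
miR-19a: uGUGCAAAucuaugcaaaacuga
miR-19b: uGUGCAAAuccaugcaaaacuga
The other 4 carry the miR-25 seed.
miR-25: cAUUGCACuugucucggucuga
miR-32: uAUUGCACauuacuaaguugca
miR-92a: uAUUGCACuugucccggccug
miR-92b: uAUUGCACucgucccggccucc
Of 693 mature rat miRNA names in RefSeq, 2 hold the first seed and 5 the other, the fifth being miR-363-3p. Outside the seed the members were unequally alike. MiR-19a and miR-19b were identical at 22 of 23 positions and differed only by U11C (miR-19a base first, position counted from the 5′ end). MiR-92a and miR-92b were identical at 19 of 21 positions, with U10C and G21C. MiR-25 matched miR-92a at 18 of 21 positions, whereas miR-32 matched miR-92a at 11 of 21.

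MiR-19a came from chr15:98588179-98588201 on the plus strand. MiR-19b had a copy further along the same cluster, at chr15:98588486-98588508, and another at chrX:137343070-137343092 on the minus strand. MiR-92a likewise had copies at chr15:98588602-98588622 (plus) and chrX:137342945-137342965 (minus). The 6 genes of the miR-17 cluster spanned 762 bases, from their first to their last mature base. MiR-25 lay at chr12:22156652-22156673 (minus) inside the Mcm7 gene, which encodes a subunit of the replicative helicase, and miR-32 at chr5:76391328-76391349 (minus) inside Tmem245. MiR-92b lay at chr2:176931663-176931684 (minus). The array reads mature miRNAs, so signal from the copies on chromosome 15 and on chromosome X cannot be told apart.

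All 7 arrays lay on 1 slide and came from 1 scan. Each held 14255 spots, of which 13540 were for rat miRNAs and 0 were saturated. The software called 278 to 296 miRNAs detected on the arrays of older rats and 246 to 272 on those of younger rats, and the 75th percentile of the signal was 67.0 to 73.8 and 37.4 to 55.4 units. A miRNA was tested where all arrays of either age detected it, which left 272. Their median log2 difference between the ages (12 minus 3 months) was 0.79 before normalisation and 0.06 after quantile normalisation. The islet miRNAs miR-375, miR-7a and miR-7b were detected on every array. All 6 members were detected on all 7 arrays and so were tested. In RNA of a whole islet, fewer cells that express a miRNA and less of it per cell cannot be told apart.

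After quantile normalisation 5 of the 6 members had lower means at 12 months, beside 42.3% of all miRNAs tested, and miR-32 had a higher one. MiR-19a, miR-19b, miR-92a and miR-92b had an unadjusted limma p below 0.05, all with lower values, which is 4 of 6 beside 12.5% of the 272 miRNAs in that direction, 9.19% in the other and 21.7% in either. None of the 6 had an adjusted p below 0.05 (Benjamini-Hochberg over the 272), beside 1.47% of all miRNAs. MiR-19a, miR-19b and miR-92b had an adjusted p below 0.1, beside 13.6%, and in the same 3 the ages did not overlap, beside 9.56% of miRNAs with every older rat lower, 7.72% with every older rat higher and 17.3% in all. The median log2 fold change was -0.78 over the members and 0.06 over all miRNAs tested. Here and in what follows a log2 fold change is 12 months minus 3 months.

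**Figure D1:**
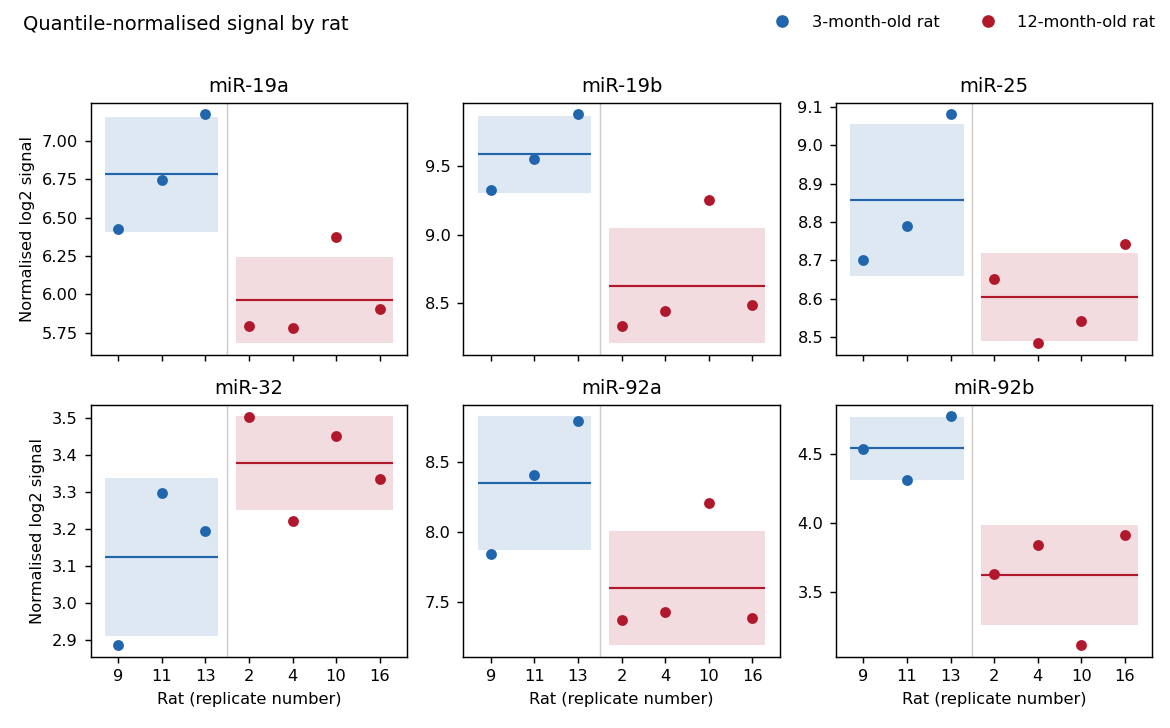
Quantile-normalised log2 signal (y axis) of each member in each rat (x axis, replicate number), with 3-month-old rats in blue and 12-month-old rats in red; lines are group means and bands are ± 1 SD. The ages do not overlap for miR-19a, miR-19b and miR-92b, and replicate 10 lies above the other older rats for miR-19a, miR-19b and miR-92a and below them for miR-92b.

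Of the miR-19 pair, miR-19a had normalised log2 signals of 5.79, 5.78, 6.38 and 5.91 in the older rats (replicates 2, 4, 10 and 16) and 6.43, 6.74 and 7.17 in the younger rats (replicates 9, 11 and 13). Every older rat lay below every younger rat, with replicate 10 just under replicate 9. The means were 5.96 ± 0.28 (SD, n = 4) and 6.78 ± 0.37 (SD, n = 3), which is a level 1.76-fold lower at 12 months. The log2 fold change was -0.82 (SE 0.23, 95% interval -1.35 to -0.29; limma p = 0.00713, adjusted p = 0.0758; exact permutation p = 0.0571). The permutation test was two-sided over the 35 splits of the rats, and 0.0286 is the smallest p it can give. With normexp background correction of the raw spot signals and an offset of 50 units, the log2 fold change of miR-19a was -0.37 (limma adjusted p = 0.152).

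MiR-19b, which differs from miR-19a by a single base, had values of 8.33, 8.44, 9.25 and 8.48 at 12 months and 9.32, 9.55 and 9.88 at 3 months. The pattern over the rats was that of miR-19a, again with replicate 10 the highest of the older rats and replicate 13 the highest of all. The means were 8.63 ± 0.42 (SD, n = 4) and 9.58 ± 0.28 (SD, n = 3), a 1.94-fold lower level at 12 months (log2 fold change -0.96, SE 0.25, 95% interval -1.54 to -0.37; limma p = 0.0054, adjusted p = 0.0700; exact permutation p = 0.0571). Without replicate 10 of the older rats the log2 fold change of miR-19b was -1.19 and its limma adjusted p was 0.0171.

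Of the 4 members with the miR-25 seed, miR-92a had the closest values to the miR-19 pair in shape. It read 7.37, 7.44, 8.21 and 7.39 at 12 months and 7.84, 8.41 and 8.79 at 3 months. Replicates 2, 4 and 16 lay below all younger rats, but replicate 10 lay above the younger replicate 9, so the ages overlapped. The means were 7.60 ± 0.41 (SD, n = 4) and 8.35 ± 0.48 (SD, n = 3), with a log2 fold change of -0.75 (SE 0.29, 95% interval -1.41 to -0.08; limma p = 0.0323, adjusted p = 0.176; exact permutation p = 0.0857). When each rat was left out in turn, the unadjusted limma p of miR-92a was below 0.05 in 2 of 7 fits, those without the older replicate 10 and without the younger replicate 9. It ran from 0.0682 to 0.130 without each of the other rats, the older replicates 2, 4 and 16 and the younger replicates 11 and 13.

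MiR-92b, the single-gene relative of miR-92a, had the smallest exact p of the 6. Its normalised log2 signals were 3.63, 3.84, 3.11 and 3.92 at 12 months and 4.54, 4.31 and 4.78 at 3 months. Every older rat lay below every younger one, and here replicate 10 was the lowest of all, 0.52 below the mean of its age on the log2 scale. The means were 3.62 ± 0.36 (SD, n = 4) and 4.54 ± 0.23 (SD, n = 3), a 1.89-fold lower level at 12 months (log2 fold change -0.92, SE 0.23, 95% interval -1.44 to -0.40; limma p = 0.0036, adjusted p = 0.0608; exact permutation p = 0.0286). It was also a dim miRNA, with total gene signals of 9.16 to 19.03 units, and its value depended on how the signal was made. The log2 fold change was -0.13 with normexp correction (limma adjusted p = 0.247) and -0.55 in the deposited matrix (limma adjusted p = 0.0888).

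MiR-25 differed less. It read 8.65, 8.48, 8.54 and 8.74 at 12 months and 8.70, 8.79 and 9.08 at 3 months, and only the older replicate 16 reached into the range of the younger rats. The means were 8.61 ± 0.11 (SD, n = 4) and 8.86 ± 0.20 (SD, n = 3), with a log2 fold change of -0.25 whose 95% interval ran from -0.60 to 0.10 (SE 0.15; limma p = 0.138, adjusted p = 0.416; exact permutation p = 0.0857).

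MiR-32 was the only member with a higher mean at 12 months. Its values were 3.50, 3.22, 3.45 and 3.33 at 12 months and 2.89, 3.30 and 3.19 at 3 months, and the older replicate 4 lay below the younger replicate 11. The means were 3.38 ± 0.13 (SD, n = 4) and 3.13 ± 0.21 (SD, n = 3), with a log2 fold change of 0.25 (SE 0.16, 95% interval -0.11 to 0.61; limma p = 0.148, adjusted p = 0.435; exact permutation p = 0.114).

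**Figure D2:**
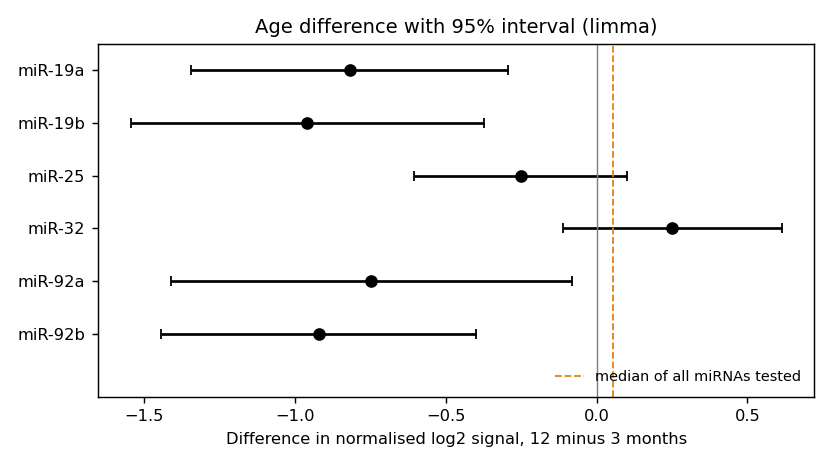
Difference in normalised log2 signal between the ages (x axis, 12 minus 3 months) for each member, as points with limma's 95% interval; the dashed line is the median of the 272 miRNAs tested. The intervals of miR-19a, miR-19b, miR-92a and miR-92b lie below 0, and those of miR-25 and miR-32 include 0.

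The slide had 2 rows, each with both ages, and within the rows each member kept its direction. In row 1 (older replicates 2 and 4, younger replicate 9) miR-19a, miR-19b, miR-92a and miR-92b had log2 fold changes of -0.64, -0.94, -0.44 and -0.81. In row 2 (older replicates 10 and 16, younger replicates 11 and 13) the values were -0.82, -0.85, -0.80 and -1.03 in the same order. MiR-25 had -0.13 and -0.29, and miR-32 had 0.47 and 0.15.

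The signals before normalisation gave another picture of the same arrays. MiR-19b read 434, 465, 628 and 431 units at 12 months and 440, 649 and 570 units at 3 months, so the ages overlapped on this scale. MiR-19a read 65.3, 69.7, 100.05 and 69.5 units against 62.6, 98.8 and 85.4 units, and miR-92a 218, 237, 312 and 218 units against 178, 311 and 283 units. For all 3 of these miRNAs replicate 10 lay with the brighter younger rats, and replicate 9 was dimmer than the older replicate 4.

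For miR-25 the older rats were all brighter before normalisation, with 529, 478, 432 and 551 units against 292, 422 and 371 units. MiR-32 had the same order, with 14.7, 12.2, 12.0 and 13.1 units at 12 months and 5.52, 9.45 and 5.71 units at 3 months. MiR-92b read 15.1, 18.2, 9.16 and 18.5 units against 18.6, 17.7 and 19.03 units, close to level apart from replicate 10. The unnormalised log2 differences of miR-19a, miR-19b, miR-92a and miR-92b were -0.11, -0.18, -0.04 and -0.33 in that order, and those of miR-25 and miR-32 were 0.47 and 0.96, where the median of all miRNAs tested was 0.79. Relative to that median 5 members lay lower and miR-32 0.16 higher.

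**Figure D3:**
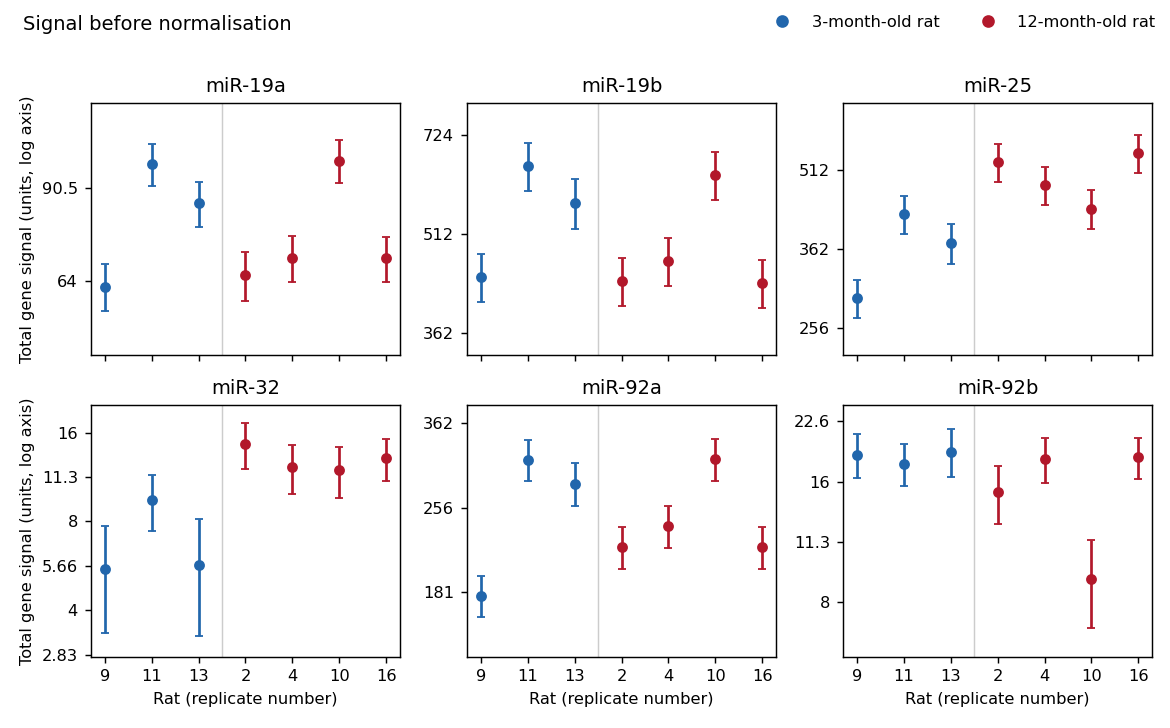
Total gene signal before normalisation (y axis, background-subtracted units, log axis) of each member in each rat (x axis, replicate number), with bars for the error that the scanner software gives. The ages overlap for miR-19a, miR-19b, miR-92a and miR-92b, while every older rat is brighter for miR-25 and miR-32.

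The direction of miR-25 therefore turned only where the arrays were not scaled. Its log2 fold change was -0.25 after scaling by the 75th percentile of the miRNAs detected on all arrays, -0.40 after scaling to the islet miRNA miR-7a, and 0.47 without normalisation. MiR-19a, miR-19b, miR-92a and miR-92b had lower means and miR-32 a higher one under each of these scalings, which changed their sizes. Under scaling to the 75th percentile of detected miRNAs miR-92b passed the adjusted threshold (log2 fold change -1.05, limma adjusted p = 0.0259). Under that scaling 20 of the 272 miRNAs tested passed it, against 4 after quantile normalisation.

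**Figure D4:**
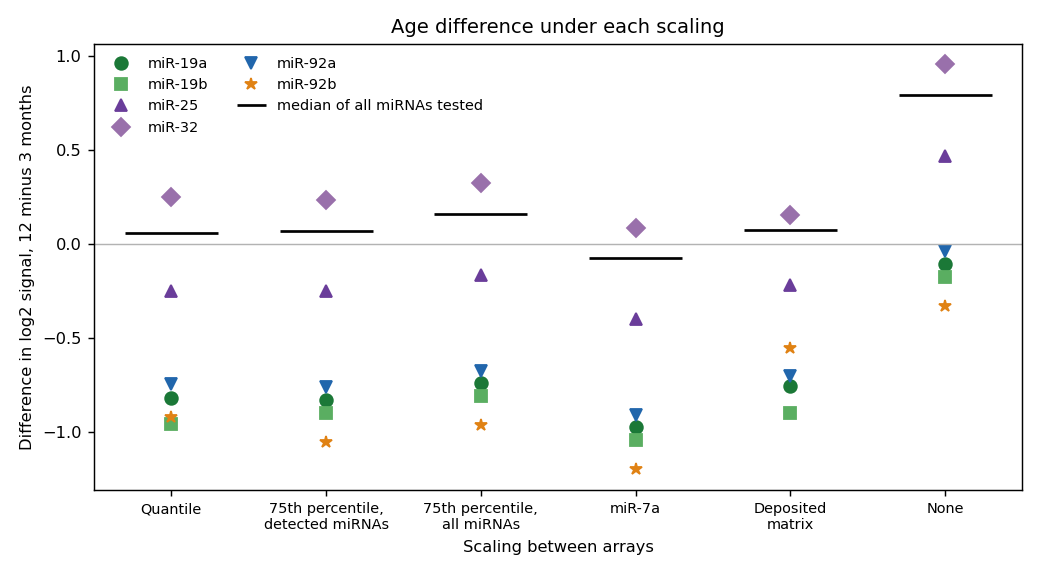
Difference in log2 signal between the ages (y axis, 12 minus 3 months) for the 6 members under 6 ways of scaling the arrays (x axis), with a black bar for the median of all miRNAs tested. Under each scaling miR-32 lies above the median and the other 5 members below it, and the points of miR-25 lie below 0 except without normalisation.

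The error that the software attached to a signal was 7.84 to 9.01% for miR-19a, miR-19b, miR-25 and miR-92a, against 11.7 to 24.8% for miR-92b and 16.4 to 42.8% for miR-32. Each of the first 4 was read by 2 probes with 10 spots each, and for each the probes differed between the ages in the same direction before normalisation. The brighter probe of miR-19b gave a log2 difference of -0.19 and the dimmer one -0.12. The probes of miR-25 gave 0.47 and 0.47. MiR-32 and miR-92b had 4 probes with 5 spots each. For miR-32, 1 probe lay under 1 unit on all 7 arrays and another on 5, so that its signal came almost wholly from the remaining pair, with log2 differences of 0.76 and 0.80. Even this pair had any spot well above background on only 3 and 5 of the 7 arrays, and the other probes on 0. All 4 probes of miR-92b had lower means at 12 months, by -0.50 to -0.26 on the log2 scale, at mean signals of 3.07 to 5.84 units. The ages overlapped for each of them. For all but the brightest, the highest older value lay above the highest younger one (such as 5.12 and 5.07 units). From the brightest probe down, any spot was well above background on 6, 5, 1 and 3 of the 7 arrays. The total signal of miR-92b was lowest in the older replicate 10, at 9.16 units. Dim signal thus limits miR-32 and miR-92b more than the other members.

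A ratio of 2 miRNAs on the same array does not depend on any factor that multiplies the whole array. Over the 238 miRNAs detected on all arrays, the SD of the log2 ratio over the 7 arrays had a median of 0.44 across 28203 pairs. Among the 15 pairs of members it ranged from 0.0611 to 0.806. The log2 ratio of miR-19a to miR-19b had the lowest SD, 0.0611, and 0.195% of all pairs had a smaller one. The mean ratio was -2.69 ± 0.06 in older rats (SD, n = 4) and -2.76 ± 0.05 in younger rats (SD, n = 3), and the ages overlapped. Since the sequences differ at a single base, either may bind the other's probes, and how much was not tested.

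MiR-92a, identical to either member of the miR-19 pair at 5 of 21 positions, also kept close to that pair. Its SD was 0.0856 against miR-19a, with 0.738% of all pairs smaller, and 0.115 against miR-19b, with 2.31% smaller. These 3 miRNAs have genes in the same cluster on chromosome 15, and miR-19b and miR-92a also have copies on chromosome X. Whether a shared transcript plays a part was not tested. MiR-92a against miR-92b, the pair with the most similar sequences after miR-19a and miR-19b, had an SD of 0.583, and 67.2% of all pairs had a smaller one. MiR-92b was dim, with a signal error of 11.7 to 24.8% against 8.32 to 8.66% for miR-92a. The part of that error in the SD was not tested. The ratio of miR-92a to miR-92b averaged 4.05 ± 0.70 in older rats (SD, n = 4) and 3.76 ± 0.45 in younger rats (SD, n = 3), with replicate 10 the highest at 5.09.

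The ages did not overlap in 8 of the 15 ratios between members, beside 20.4% of all pairs. MiR-19b over miR-25 averaged -0.04 ± 0.41 in older rats (SD, n = 4) and 0.61 ± 0.02 in younger rats (SD, n = 3). The highest older rat, replicate 10 at 0.54, lay under the lowest younger rat at 0.59. MiR-25 over miR-92b averaged 5.08 ± 0.37 and 4.28 ± 0.30 (SD, n = 4 and 3), again without overlap. Of the others, 5 were ratios with miR-32, namely those to miR-19a, miR-19b, miR-25, miR-92a and miR-92b, and the last was miR-19b over miR-92a, at 0.99 ± 0.02 and 1.12 ± 0.15. The 15 ratios share 6 miRNAs and are not independent.

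**Figure D5:**
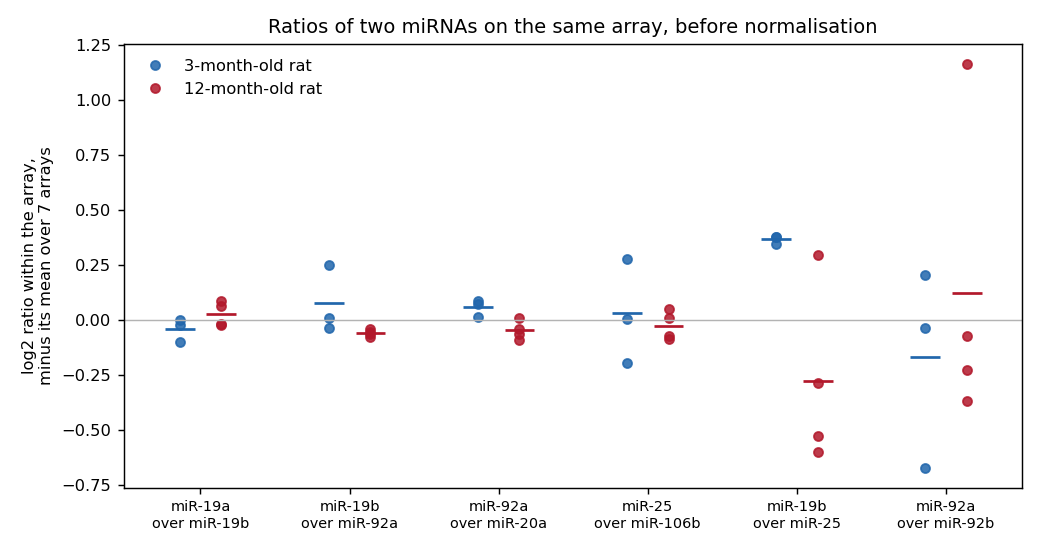
Log2 ratio of 2 miRNAs on the same array (y axis, minus the mean over the 7 arrays) for 6 pairs (x axis), with each point a rat and each bar the mean of an age. The points of miR-19a over miR-19b and of miR-92a over miR-20a lie closest together, miR-19b over miR-25 separates the ages, and replicate 10 lies far above the rest for miR-92a over miR-92b.

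Other products of the 3 clusters, without miR-106a, were listed under 9 names, which include alternative names for miR-17-5p and miR-20b-5p. Of these names 7 were on the array and 5 were tested. These partners mostly carry the miR-17 seed, whose targets include cell-cycle inhibitors. None had an adjusted p below 0.05, beside 1.47% of all miRNAs tested. MiR-20a and miR-20b-5p had an unadjusted p below 0.05, both with lower values, which is 2 of 5 beside 12.5% of all miRNAs in that direction. In the miR-17 cluster miR-20a had a log2 fold change of -0.62 (SE 0.27; limma adjusted p = 0.226) and miR-17-5p one of -0.30 (SE 0.16; limma adjusted p = 0.353). MiR-20b-5p of the miR-106a-363 cluster had -0.64 (SE 0.26; limma adjusted p = 0.198). In the miR-106b-25 cluster miR-93 had -0.28 and miR-106b -0.19 (limma adjusted p = 0.372 and 0.523), near the -0.25 of miR-25. MiR-18a was detected in 3 of 4 older and 2 of 3 younger rats and was not tested. MiR-363, the other carrier of the miR-25 seed, was detected only in the older replicate 16.

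The ages did not overlap in 13 of the 30 ratios of a member to a partner, beside the 20.4% of all pairs. The smallest SDs of the 30 were those of miR-92a to miR-20a and to miR-20b-5p. The SD of the log2 ratio was 0.0668 for miR-92a to miR-20a, with 0.301% of all pairs smaller, and 0.0711 for miR-92a to miR-20b-5p, with 0.383% smaller. Even so miR-92a over miR-20a did not overlap between the ages, at 0.81 to 0.90 in the older and 0.91 to 0.98 in the younger rats. MiR-92a varied more against miR-17-5p, another product of the cluster on chromosome 15, with an SD of 0.277 and 25.2% of pairs smaller. MiR-25 against miR-106b had an SD of 0.148, with 5.03% smaller, and against miR-93 one of 0.188, with 10.2% smaller, whereas miR-25 against miR-92a had 0.404, with 44.9% smaller. The ratio of miR-25 to miR-106b overlapped between the ages, at -0.09 ± 0.06 and -0.03 ± 0.24 (SD, n = 4 and 3). All such values are descriptions over the same 7 arrays, and bright miRNAs are measured with less error than dim ones.

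The normalised profiles were also compared, by the root mean square difference of centred log2 values over the 7 arrays. The nearest of the 238 miRNAs to miR-92a were miR-20a at 0.106, miR-20b-5p at 0.118 and miR-19a at 0.124, where the median miRNA was at 0.621. Nearest to miR-19a were miR-92a at 0.124, miR-20b-5p at 0.130 and miR-19b at 0.130. For miR-19b miR-181a came first at 0.126, before miR-19a at 0.130 and miR-92a at 0.159. No cluster partner was among the 3 nearest to the others. Nearest to miR-25 were miR-99a at 0.0742, miR-212 at 0.0746 and miR-153 at 0.0864, to miR-32 miR-429 at 0.120, miR-30c-2* at 0.124 and let-7a at 0.125, and to miR-92b miR-582* at 0.163, miR-702-3p at 0.163 and let-7b* at 0.164.

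The opposite strands of the member hairpins, which are usually degraded after the hairpin is cut, were not seen. All 8 were on the array and 0 were detected on any of the 7 arrays, with signals of -7.93 to 10.3 units. The highest value belonged to miR-32*.

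Markers of other cell types differed between the same rats. All 3 acinar miRNAs (miR-216a, miR-216b-5p, miR-217) had lower normalised means at 12 months with an unadjusted p below 0.05, beside 12.5% of all miRNAs in that direction (median log2 fold change -2.11). Their limma adjusted p was 0.163 to 0.170, and the ages overlapped for each. Their summed signal was 149 to 1451 units at 12 months and 887 to 1722 units at 3 months. The acinar sum of the older rats was highest in replicate 10, at 1451 units, and that of the younger rats in replicate 13, at 1722 units. These are also the rats with the highest normalised miR-19a, miR-19b and miR-92a of their age. MiR-92b was instead lowest in replicate 10 among the older rats, and highest in replicate 13 among the younger ones. The acinar sums are not normalised. Before normalisation miR-19a, miR-19b and miR-92a were brightest in replicate 10 among the older rats, but in replicate 11 among the younger ones. In the older replicates 2, 4 and 16 the acinar sums were 149, 844 and 295 units. Normalised miR-19a there was 5.79, 5.78 and 5.91, and miR-19b 8.33, 8.44 and 8.48. The summed signal of the islet miRNAs miR-375, miR-7a and miR-7b was lowest of each age in replicates 10 and 13. It was 33979 units in replicate 10, against 54301 to 64620 units in the other older rats. In replicate 13 it was 26727 units, against 29982 and 35489 units in the other younger rats. Of 5 mesenchymal miRNAs all had higher means at 12 months and 4 had an unadjusted p below 0.05, beside 9.19% of all miRNAs in that direction (median 1.16; summed signal 2629 to 3645 and 736 to 1711 units). Of 4 leukocyte miRNAs 3 had higher means and 2 of these an unadjusted p below 0.05 (sum 310 to 663 and 142 to 222 units), and both endothelial ones had higher means, 1 of them with such a p (sum 2173 to 2794 and 1017 to 1754 units). The same 9.19% of all miRNAs stands beside these counts. Of the erythroid pair miR-451 and miR-144 neither had a p below 0.05 (sum 144 to 289 and 86.7 to 224 units). Each listed marker on the array was detected on at least 1 array, miR-486 was not analysed here, and their part in the values of the members was not tested.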

How the data were processed

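The authors hybridised Cy3-labelled islet RNA of each rat to 1 array and deposited the output of Agilent Feature Extraction 10.7.3.1, with background-subtracted intensity per miRNA on a linear scale, raw spot intensities and a detection flag. They also deposited a matrix of log2 values, quantile normalised according to the notes of their supplement, used as an alternative. Each rat was assigned to its age group from its label. The total gene signal (sum over probes) was set to at least 1, put on a log2 scale and quantile normalised over the 677 rat miRNAs. The 272 miRNAs that all arrays of either age detected were tested with limma 3.58.1 (lmFit, eBayes) in R 4.3.3, all 7 rats, no covariate, with Benjamini-Hochberg adjustment. Single members also had a two-sided exact permutation test of the difference of means. The fit was also run on simulated signals with known changes. Their noise was independent between miRNAs and equally large for each, unlike that of these arrays. That run therefore does not show how the fit performs on these data. Quantile normalisation forces equal distributions on the arrays, so that a change shared by most miRNAs is removed.

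The members and the lists of partners and markers were chosen with earlier results of these data known, so no test was run on a list. Patterns most like a member were the 3 miRNAs with the smallest root mean square difference. The 25 alternatives covered signal summary, background, scaling, filter, floor, variance model, array weights, slide row, the deposited matrix, the methods' t-test and each rat left out. Sequences and coordinates came from RefSeq (GRCr8), matched by name for all 6 members. With 7 arrays, their number limits the precision. The mRNA arrays, the qPCR and the transfection experiments were not analysed here.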

Additional observations from a re-analysis of the deposited data

Results flagged for a closer look

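Replicate 10 stood apart from the other 12-month-old rats for miR-19b and miR-92a. The gap from replicate 10 to the next rat made up 0.832 of the range of the 4 older rats for miR-19b and 0.924 for miR-92a, above the critical value of Dixon's test at the 95% level. Chance alone gives such a gap in about 1 of 20 groups, and since miR-19b and miR-92a had alike values over the rats, these gaps are not independent. Replicate 10 lay 0.62 and 0.61 above the mean of its age on the log2 scale for these miRNAs and 0.41 above it for miR-19a, which was not past the critical value.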

How the results depend on the processing

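No paired analysis was possible because the 2 ages share no replicate numbers. Lower means of miR-19a, miR-19b, miR-92a and miR-92b and the higher mean of miR-32 held under all 25 alternatives, and that of miR-25 turned only without normalisation (0.47). The unadjusted p stayed below 0.05 in 24 of 25 for miR-19a, miR-19b and miR-92b and in 16 of 25 for miR-92a. Adjusted p values crossed 0.05 with array weights for miR-19a (-0.84, limma adjusted p = 0.0123), miR-19b (-1.08, 0.00413), miR-92a (-0.89, 0.0218) and miR-92b (-0.64, 0.0367). The ranges of adjusted p over the alternatives were 0.0123 to 0.740, 0.00413 to 0.570, 0.0218 to 0.904 and 0.0221 to 0.320 in that order, and 0.0215 to 0.960 for miR-32. MiR-92b also crossed with the 75th percentile of detected miRNAs (-1.05, 0.0259) and miR-7a (-1.20, 0.0221), and miR-32 without normalisation (0.96, 0.0215). The cause was not tested.

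Members with an adjusted p below 0.05 numbered 1 with the 75th percentile of detected miRNAs, 1 with miR-7a, 1 without normalisation and 4 with array weights, and those with an unadjusted p below 0.05 numbered 1 without normalisation. With normexp, whose offset of 50 units shrinks log2 differences of dim miRNAs, miR-19a was at -0.37, miR-92b at -0.13 and miR-32 at 0.01. The deposited matrix gave -0.55 for miR-92b and 0.15 for miR-32. The median of the members was -0.29 with normexp and -0.075 without normalisation. All miRNAs with an unadjusted p below 0.05 numbered 59 (25 higher, 34 lower), 37 with miR-7a (9 higher, 28 lower), 193 without normalisation (189 higher, 4 lower) and 89 with array weights (49 higher, 40 lower), of which 15, 171 and 48 had an adjusted p below 0.05, against 4. With the 75th percentile of detected miRNAs 20 of all miRNAs had an adjusted p below 0.05, and without replicate 10 of the older rats 10 did.

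Leaving out each rat gave log2 fold changes of -1.0045 to -0.63 for miR-19a, -1.19 to -0.79 for miR-19b (adjusted p = 0.0171 without replicate 10 of the older rats), -0.34 to -0.13 for miR-25, 0.14 to 0.33 for miR-32, -1.0011 to -0.52 for miR-92a and -1.04 to -0.76 for miR-92b. The median ran from -0.96 to -0.58, the members called from 0 to 1 (adjusted) and from 3 to 4 (unadjusted), and all miRNAs with an unadjusted p below 0.05 from 41 to 88. Low signal over background limits miR-32 and miR-92b.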
